A study of Macaca fascicularis with 12 samples.

Results

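A set of 10 genes that mark or equip inhibitory and cholinergic interneurons was followed across 12 brain arrays: the peptides NPY, SST, CCK and VIP, the calcium-binding proteins PVALB, CALB1 and CALB2, and the transmitter enzymes GAD1, GAD2 and CHAT. The members were chosen by name, as every probe set whose single symbol in the array annotation is one of these 10, out of 14132 distinct symbols. Probe sets were found for 6 genes, 9 in all: 1 each for NPY, PVALB, VIP and CHAT, 3 for GAD1 and 2 for GAD2. No probe set carried SST, CALB1, CALB2 or CCK as its single symbol, and these 4 were not analysed here. The VIP probe set fell below the filter on dim probe sets, so 8 probe sets of 5 genes were tested.

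The tissue came from 3 adult male cynomolgus macaques. Each received 4 intrastriatal injections of the baculovirus vector BV-HSVtk on the left, 10 µL with 1e8 particles each, and a mock preparation at corresponding positions on the right. Baculoviruses infect insect cells and can carry genes into mammalian cells without replicating there, and HSVtk is the thymidine kinase of herpes simplex virus. The mock preparation was insect cell (Sf9) medium without virus that went through the purification steps as well. After 2 days, 2 tissue samples (pieces, about 100 mg) were dissected from each hemisphere, which gives 6 BV and 6 mock arrays from 6 hemispheres. Replicates 1 and 2 are animal 1, 3 and 4 animal 2, and 5 and 6 animal 3. Piece 1 has the odd and piece 2 the even replicate numbers. The virus was always on the left, so treatment and side cannot be told apart, and no animal was left uninjected. The question was which transcripts differ in the injected brain.

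Interneurons signal within a brain region. Most release GABA, which is made from glutamate by the decarboxylases GAD67 (encoded by GAD1) and GAD65 (GAD2). In the striatum they are a small minority among medium spiny projection neurons, which also use GABA and also make both decarboxylases. The known striatal kinds include parvalbumin (PVALB) cells that fire fast, cells that make neuropeptide Y (NPY) with somatostatin and nitric oxide synthase, calretinin (CALB2) cells, and large cholinergic cells that carry choline acetyltransferase (CHAT). None of these genes belongs to striatal interneurons alone: parvalbumin is also made in the thalamus, among others in its reticular nucleus, and elsewhere in the brain. In these whole-tissue pieces, fewer cells of a type and less RNA per cell cannot be told apart.

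The pieces differed in their levels of brain region markers. In 6 arrays (BV 4 and 6, mock 2, 4, 5 and 6), called striatum-rich here, the mean log2 value of 9 measured markers of medium spiny neurons lay between 8.95 and 10.31, against 6.26 to 7.63 in the other 6. The mean of 10 thalamic markers ran the other way, from 6.55 to 7.83 in the striatum-rich arrays and from 8.02 to 9.12 in the others. Not every marker followed its list. The thalamic markers PRKCD and TNNT1 had higher medians in the striatum-rich arrays, by 0.74 and 0.15 log2 units. The striatal marker ARPP21 differed by -0.14. This split comes from measured marker levels, not from the labels, so values on its sides are described and not tested. It is not balanced: 2 of 6 BV and 4 of 6 mock arrays are striatum-rich, and 5 of these 6 come from piece 2. Piece 2 arrays had deposited medians of 25.4 to 32.7 and piece 1 arrays 50.2 to 62.8, a difference in array scale that was removed by quantile normalization. The actin 3'/5' ratio, a sign of RNA quality, was 2.4 on mock 6 and 1.1 to 1.4 on the other arrays. Of 8 measured interferon-induced genes, the usual response to a virus, 4 (ISG15, MX1, IFIT3 and IFI27) rose in BV tissue in the limma fit described below. The region markers also lay apart by treatment: 9 of 9 measured striatal markers had lower values in BV tissue (median -0.87 log2 units) and 8 of 10 thalamic markers higher ones (median 0.61), with none called in either list. Of all 31660 tested probe sets, 16810 were lower and 14850 higher in BV tissue. The split rests on measured markers and holds more mock arrays, so these counts are not separate from it. Within replicate pairs DRD2, PENK, GPR6, RGS9, PDE10A and FOXP1 were higher in BV in 3 of 6. PPP1R1B was higher in 4, ADCY5 in 2 and ARPP21 in 1.

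Virus and mock tissue were compared first. The levels below are normalized intensities in arbitrary units after quantile normalization, and each level can be compared between arrays but not between genes. Differences are BV minus mock on the scale of log2(intensity + 3.49), which understates changes of dim genes. They come from limma with the pieces of a hemisphere averaged and the animal as a block (n = 3 animals), with Benjamini-Hochberg adjustment over 31660 probe sets at 0.05. None of the 5 tested member genes passed. Over the whole array 9 probe sets passed, which is 0.0284%. At an unadjusted p under 0.05 there was 1 member gene (PVALB) of 5, beside 2787 of all tested probe sets (8.80%). The median difference of the 5 genes was -0.03, beside -0.02 over all tested probe sets, with 2 genes higher and 3 lower in BV tissue. No member had all 6 BV arrays on one side of all 6 mock arrays, which 0.373% of the tested probe sets had. No member was higher in the BV array in 5 or 6 of the 6 replicate pairs, which 16.5% of the tested probe sets were.

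**Figure D1:**
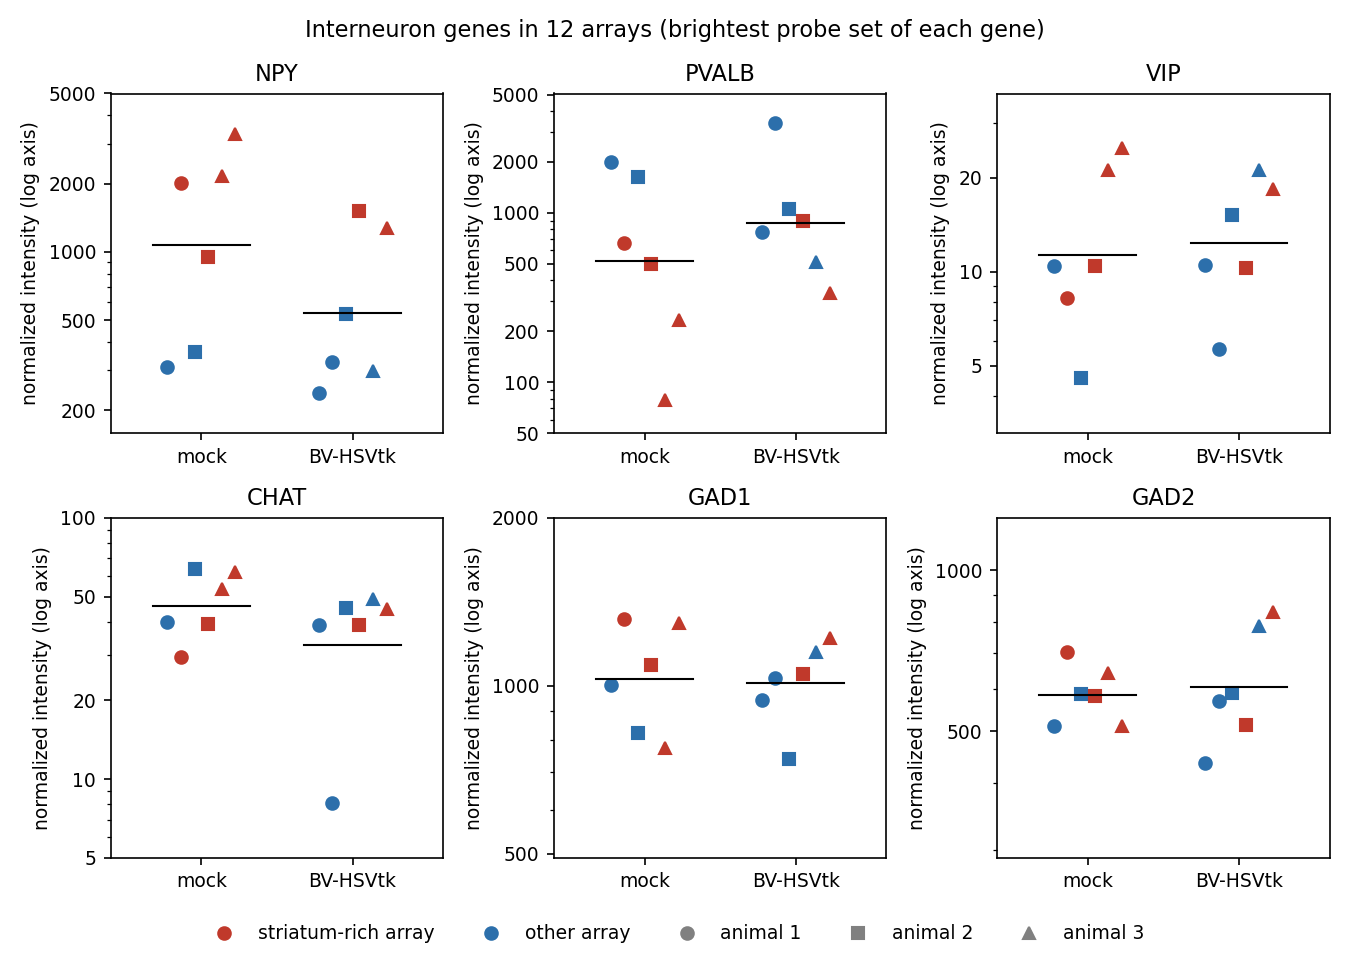
Normalized intensity (log axis, arbitrary units) of the brightest probe set of each of 6 genes in the 6 mock and 6 BV arrays; each point is 1 array, its shape the animal, its colour the side of the striatal marker split, and the bar the geometric mean. NPY runs from 238 to 3307 and PVALB from 78.3 to 3380.1, while GAD1 stays between 738 and 1318.

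NPY, a peptide that dampens transmitter release and is made by a class of low-threshold interneurons, had the lower level in BV tissue on average. Its normalized intensity in the BV arrays had a lowest value of 238, a median of 431 and a highest of 1513, and in the mock arrays 311, 1482 and 3307. The groups overlapped, and each held low and high arrays. The mean log2 value was 9.08 ± 0.85 in BV and 10.08 ± 1.16 in mock hemispheres (SD, n = 3 each). The limma difference was -0.99 ± 0.49 (SE; 95% interval -2.21 to 0.22; adjusted p = 0.569), a BV to mock ratio of 0.502, and it did not pass. It was made of -1.50 in animal 1, 0.62 in animal 2 and -2.11 in animal 3. BV was the lower array in 4 of 6 replicate pairs. The difference was -0.75 ± 0.55 without animal 1 and -0.44 ± 0.40 without animal 3, neither of which passed (adjusted p = 0.999 and 0.934). Without animal 2, the 1 animal with the opposite sign, it was -1.80 ± 0.21 and passed (adjusted p = 0.000249), in a fit that left 1 residual degree of freedom and called 1845 probe sets. Leaving out 1 array at a time gave -1.44 (without mock replicate 1) to -0.55 (without mock replicate 2), with -0.65 without BV replicate 5, and none passed.

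The NPY differences lay apart by the side of the split on which the paired arrays fell. In 2 pairs the mock array was striatum-rich and the BV array was not, and there the differences were -2.61 (pair 2) and -2.84 (pair 5). In the other 4 pairs both arrays lay on the same side of the split, and the differences were -0.38, 0.56, 0.68 and -1.38 (pairs 1, 3, 4 and 6). With the striatal marker mean as a covariate on single arrays the limma difference was -0.28 ± 0.24 (adjusted p = 0.732). NPY itself lies apart by that mean, and the part of tissue makeup in the difference was not tested.

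PVALB, a calcium buffer of fast-spiking interneurons, had the higher mean in BV tissue. Its normalized intensity in the BV arrays had a lowest value of 337, a median of 834 and a highest of 3380.1, and in the mock arrays 78.3, 582 and 1996. The groups overlapped over most of their range. The mean log2 value was 9.77 ± 0.99 in BV and 9.04 ± 1.67 in mock hemispheres (SD, n = 3 each). The limma difference was 0.73 ± 0.29 (SE; 95% interval 0.02 to 1.43; adjusted p = 0.564) and did not pass. It was positive in all 3 animals, at 0.49, 0.10 and 1.59, but in only 4 of 6 replicate pairs.

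The PVALB pairs fell apart in the same way as those of NPY, with the sign turned. Pairs 2 and 5, in which only the mock array was striatum-rich, had differences of 2.34 and 2.66. The other 4 had -1.36, -0.64, 0.84 and 0.53 (pairs 1, 3, 4 and 6). With the striatal marker mean as covariate the limma difference was 0.31 ± 0.37 (adjusted p = 0.795), and the part of tissue makeup was not tested here either. The difference was 0.85 ± 0.38 without animal 1 and 0.29 ± 0.14 without animal 3, neither of which passed (adjusted p = 0.999 and 0.747). Without animal 2 it was 1.04 ± 0.25 and passed (adjusted p = 0.027), with 1 residual degree of freedom, in the fit that called 1845 of 31660 probe sets. Leaving out 1 array at a time gave 0.37 (without BV replicate 2) to 1.08 (without BV replicate 1), with 0.46, 0.44 and 0.47 without mock replicates 2, 4 and 5, and none passed.

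**Figure D2:**
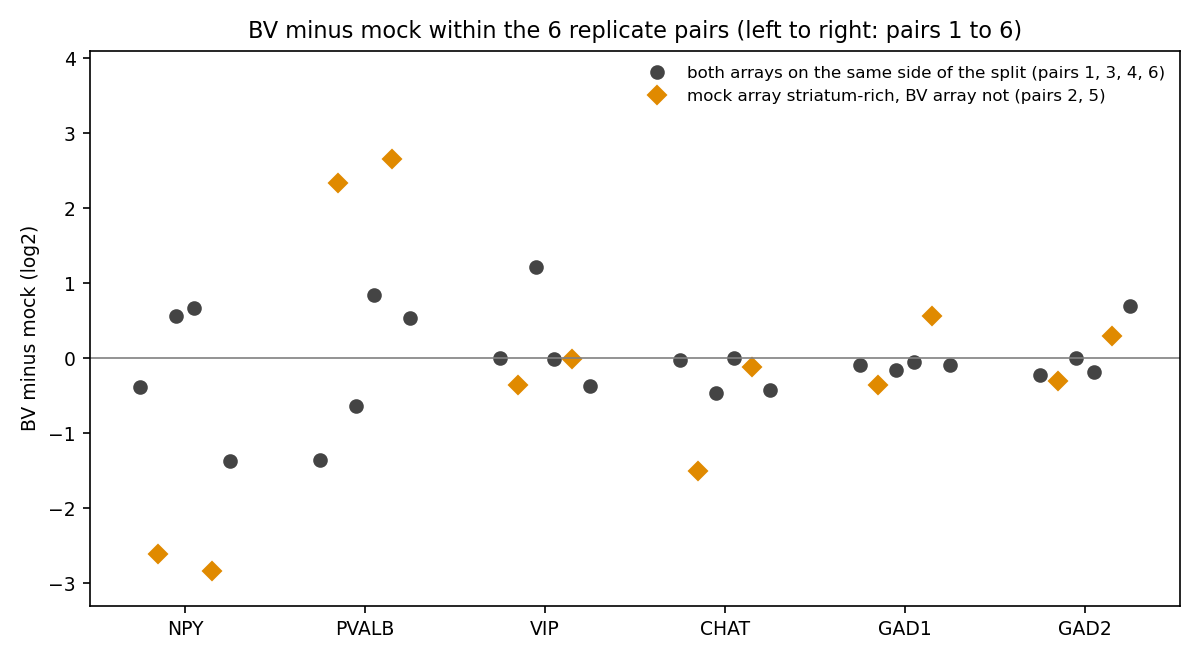
BV minus mock on the log2 scale for the brightest probe set of 6 genes, 1 point per replicate pair and pairs 1 to 6 from left to right; diamonds mark pairs 2 and 5, whose mock array was striatum-rich while the BV array was not. For NPY the diamonds lie at -2.61 and -2.84 and for PVALB at 2.34 and 2.66, outside the range of the other 4 pairs.

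CHAT, the enzyme that makes acetylcholine and the defining gene of cholinergic interneurons, was lower in the BV array in 6 of 6 pairs. This held for 4.38% of the tested probe sets, and 7.75% had 1 direction in all 6 pairs, whichever it was. Its normalized intensity in the BV arrays had a lowest value of 8.11, a median of 42.0 and a highest of 48.8, and in the mock arrays 29.4, 46.6 and 63.9. Apart from BV 2, the lowest array, the BV levels lay within the range of the mock arrays. The probe set was dim, with a mean log2 value of 5.425 against the filter of 4.95. BV 2 had a deposited intensity of 4.548, near the pseudocount of 3.49. Differences at such levels may reflect background as much as CHAT transcript, which was not tested. The pair differences were -0.03, -1.50, -0.46, -0.003, -0.12 and -0.43, so in pairs 1 and 4 the arrays were nearly alike. The limma difference was -0.42 ± 0.19 (SE; 95% interval -0.88 to 0.03; adjusted p = 0.566), with -0.76, -0.23 and -0.28 in animals 1 to 3, and did not pass. It was -0.11 ± 0.21 without BV replicate 2, -0.74 ± 0.32 without BV replicate 1 and -0.25 ± 0.27 without animal 1.

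The GABA-making enzymes gave the flattest values. GAD1 had a lowest normalized intensity of 738, a median of 1043 and a highest of 1221 in the BV arrays, and 775, 1048 and 1318 in the mock arrays. Both groups covered almost the same range, though BV was lower in 5 of 6 pairs, as 18.9% of the tested probe sets were in at least that many. The limma difference was -0.03 ± 0.14 (SE; adjusted p = 0.939), and its 95% interval of -0.37 to 0.31 corresponds to BV to mock ratios from 0.776 to 1.24. Its sign turned with median centring of the arrays (0.10) and in other fits. The other 2 GAD1 probe sets had differences of 0.006 ± 0.19 and 0.009 ± 0.16.

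GAD2, whose enzyme sits mainly at nerve terminals, had a lowest normalized intensity of 436, a median of 579 and a highest of 834 in the BV arrays, and 511, 585 and 703 in the mock arrays. Its difference was 0.05 ± 0.18 (SE; 95% interval -0.40 to 0.50; adjusted p = 0.92). The animals differed, with -0.27, -0.09 and 0.50, and without animal 3 the value was -0.18. The second GAD2 probe set gave -0.006 ± 0.21, with -0.48, -0.04 and 0.50 in the 3 animals. Changes of GAD1 or GAD2 within these intervals could not be told from none with 3 animals. Larger changes could also fail the adjusted threshold, as PVALB did with an interval of 0.02 to 1.43.

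VIP, a peptide of interneurons that inhibit other interneurons in cortex, was too dim to be tested. Its normalized intensity lay between 5.64 and 21.1 in the BV arrays and between 4.56 and 24.8 in the mock arrays, with medians of 12.8 and 10.4. The 4 arrays of animal 3 were the highest of the 12, at 18.4 to 24.8, against at most 15.2 in the other 8. Whether this follows the animal or the array background was not tested.

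**Figure D3:**
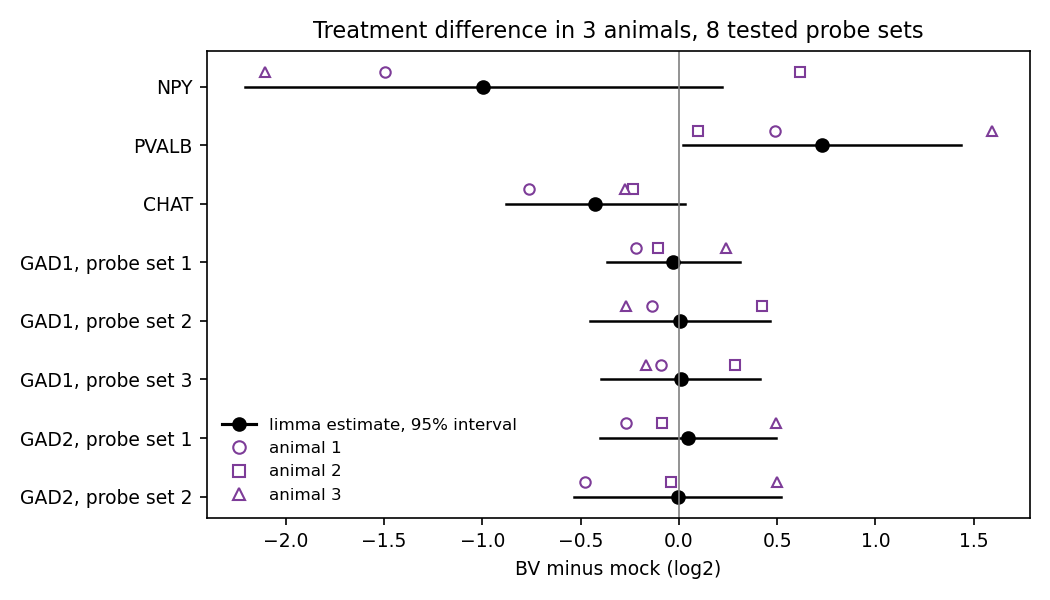
BV minus mock on the log2 scale for the 8 tested probe sets of 5 genes; black points are limma estimates with 95% intervals and open symbols the 3 animals. The intervals of NPY (-2.21 to 0.22) and PVALB (0.02 to 1.43) are wider than those of the GAD1 and GAD2 probe sets, and animal 2 lies on the other side of 0 from animals 1 and 3 for NPY.

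The animals were compared as well. A limma interaction of animal with treatment was fitted on the 12 single arrays, and none of the 5 tested members passed (adjusted p = 1 for each), with unadjusted p of 0.137 for NPY, 0.433 for PVALB, 0.728 for CHAT, 0.533 for GAD1 and 0.118 for GAD2. None of the tested probe sets passed that test, which uses the 2 pieces of a hemisphere for its error, so pieces of different makeup widen it.

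Across the tissue pieces, NPY was the member that told the striatum-rich arrays from the rest. Its normalized intensity in the 6 striatum-rich arrays had a lowest value of 946, a median of 1766 and a highest of 3307, and in the other 6 arrays 238, 319 and 534. The groups did not overlap, and the medians differed 5.43-fold. Among the tested probe sets, 2.49% had all 6 striatum-rich arrays above all others and 1.30% had them all below. Within the striatum-rich arrays NPY was highest on mock 6, which had the highest striatal marker mean (10.31), and lowest on mock 4, which had the lowest (8.95). On both sides of the split the treatments overlapped: 1513 and 1272 in the BV arrays against 2019, 946, 2159.9 and 3307 in the mock arrays of the striatum-rich side, and 238, 327, 534 and 299 against 311 and 362 on the other.

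PVALB was lower in most striatum-rich arrays. Its normalized intensity there had a lowest value of 78.3, a median of 418 and a highest of 893, against 513, 1341 and 3380.1 in the other arrays. The sides overlapped through BV 4 (893) and mock 2 (666), which lay above BV 5 (513) of the other side. The medians of the other arrays were 3.18-fold those of the striatum-rich ones. Markers of neurons in general also ran this way, with a median difference across the split of -0.97 log2 units over 9 genes. VSNL1 (-1.82), NEFH (-1.62) and ELAVL4 (-1.57) lay near PVALB (-1.67), while ENO2 was level (0.004). Of these 9, 8 had higher values in BV tissue, as did 14850 of all 31660 tested probe sets, and none was called. The part of this in the PVALB pattern was not tested. Without normalization the 2 sides did not overlap for PVALB, with log2 values of 6.71 to 9.44 against 9.57 to 11.24, but that setting keeps the difference in scale between the piece 1 and piece 2 arrays. The share of all probe sets without overlap was not computed for that setting.

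**Figure D4:**
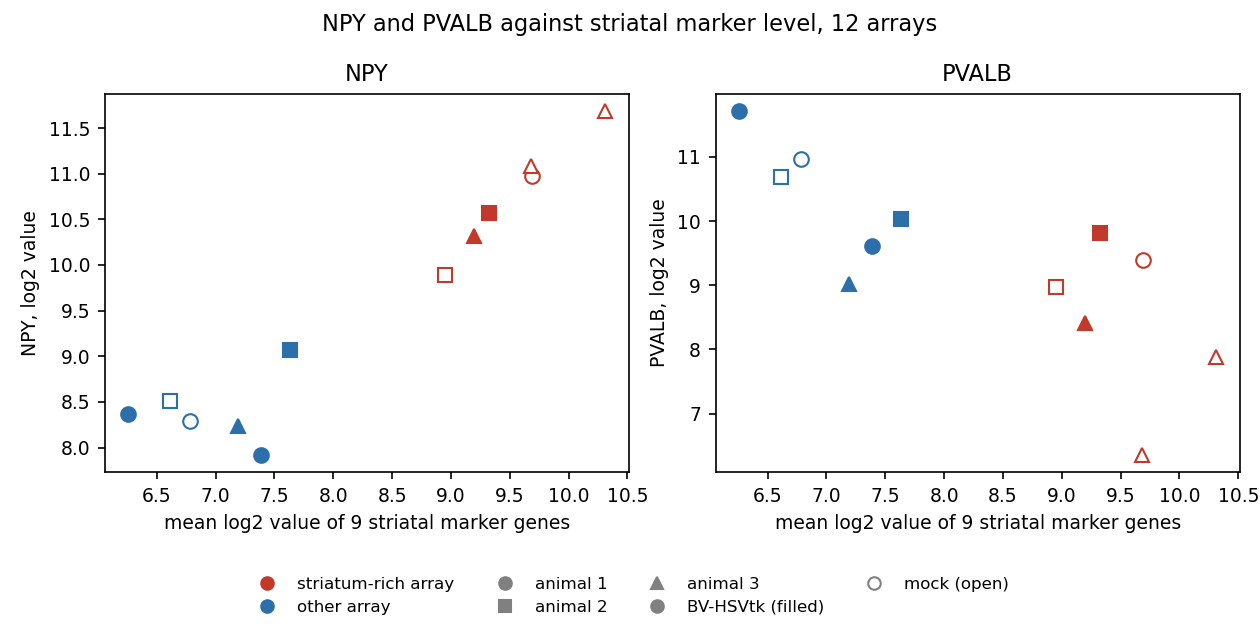
Log2 values of NPY (left) and PVALB (right) against the mean log2 value of 9 striatal marker genes in 12 arrays; filled symbols are BV, open symbols mock, shapes the animals, and colours the side of the split. All striatum-rich arrays lie above all others for NPY, while for PVALB the sides overlap.

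The 2 pieces of a hemisphere were also set side by side. In 4 hemispheres piece 2 was striatum-rich and piece 1 was not. As the sides did not overlap for NPY, it had to be higher in piece 2 in these 4, here by 1.38 to 2.69 log2 units. In the other 2 hemispheres, whose pieces lay on the same side, NPY differed by 0.45 and 0.61 between pieces. PVALB was lower in the striatum-rich piece in 4 of 4, with differences of -0.23 to -1.70, and higher in piece 2 in the hemispheres whose pieces were alike, by 2.12 and 1.53. The PVALB level therefore also varied by more than 1 log2 unit between pieces that the split puts together. Piece number and array scale go with the split in these 4 hemispheres and cannot be told apart from it there.

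The other members hardly followed the split. GAD1 had medians of 1157 in the striatum-rich and 975 in the other arrays, with ranges that overlapped, and was higher in the striatum-rich piece in 4 of 4 hemispheres by 0.09 to 0.51. The other GAD1 probe sets were higher there in 3 of 4 and 2 of 4, with median differences of 0.08 and -0.06 across the split. GAD2 had medians of 613 and 578. CHAT had medians of 42.1 and 42.6 and was lower in the striatum-rich piece in 4 of 4 hemispheres, with differences of -0.11 to -0.66. VIP had medians of 14.4 and 10.4. Of the tested probe sets, 35.1% had the striatum-rich piece on 1 side in 4 of 4 hemispheres, in either direction. Over the 12 arrays PVALB spanned 41.4-fold and NPY 13.7-fold, wider than or equal to the ranges of 99.7% and 98.2% of the tested probe sets, while GAD1 spanned 1.78-fold and GAD2 1.90-fold. CHAT spanned 5.81-fold, mostly through BV 2.

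Probe sets of 1 gene moved together only in part. The Pearson correlation over the 12 arrays, given as a description of arrays that share animals and scale, was 0.53 between the 2 GAD2 probe sets and 0.45, 0.32 and -0.06 between the 3 of GAD1. The brightest probe set stands for each gene, and which GAD1 probe set follows the transcript best was not tested, since no probe sequence was read.

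The named genes whose pattern over the 12 arrays was most like that of a member were ranked by Pearson r among 11138 named genes. Arrays on either side of the split lie apart, and a high r can come from that separation alone. For NPY they were RYR2, a calcium release channel of the endoplasmic reticulum, DNAJC25 and PDLIM7 (r = 0.987, 0.982 and 0.977). For PVALB they were EIF5A2, a translation factor, RBMS3, an RNA-binding protein, and RHOBTB1 (0.971, 0.945 and 0.942). For CHAT they were IL5RA, NNMT and GFRA4 (0.929, 0.922 and 0.907), for GAD1 ING4, FNBP4 and BICRAL (0.892, 0.886 and 0.884), and for GAD2 ZNF740, LOC720120 and FRYL (0.912, 0.885 and 0.88).

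Genes that surround the members in their pathways did not pass between BV and mock tissue either. Of 33 tested genes on 6 lists, limma called 0 higher and 0 lower. Of these 33, 5 had an unadjusted p under 0.05, beside 2787 of all 31660 tested probe sets (8.80%). For GABA handling, 4 genes were tested with a median difference of -0.12. The largest were the receptor anchor GPHN (gephyrin) at -0.34 ± 0.20 and the transporter SLC6A11 at 0.26 ± 0.33. For acetylcholine handling, 2 genes passed the intensity filter: the esterases ACHE at -0.27 ± 0.19 and BCHE at 0.20 ± 0.15. The 5 tested receptors for the member peptides all lay below 0 (BV minus mock, median -0.26), as did 16810 of all 31660 tested probe sets. SSTR4 was almost level at -0.008 ± 0.20. The largest was the somatostatin receptor SSTR2 at -0.56 ± 0.18 (adjusted p = 0.564). It was lower in BV in 6 of 6 pairs, as 4.38% of the tested probe sets were. The next was the NPY receptor NPY2R at -0.27 ± 0.16. Among receptors too dim to be tested, SSTR1 (0.06) and VIPR2 (0.08) lay above 0, and SSTR3, SSTR5 and CCKBR below. For perineuronal net and fast-spiking genes, 6 were tested with a median of 0.07, led by the link protein HAPLN4 at 0.65 ± 0.23 and the potassium channel subunit KCNAB3 at 0.37 ± 0.18. Other interneuron genes had a median of -0.24 over 6 and interneuron transcription factors -0.22 over 10.

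Some of these genes were higher in all 6 striatum-rich arrays, as were 2.49% of the tested probe sets. Others, among them CRH, KIT, PTHLH, ADARB2, SOX6 and SATB1, overlapped across the split. TAC3, which encodes neurokinin B and marks an interneuron population in the primate striatum, had a normalized intensity of 53.7 to 341 in the striatum-rich and 6.14 to 41.9 in the other arrays. LAMP5, a marker of a class of cortical interneurons, had 472 to 1043 against 87.8 to 262. Neither overlapped, and both had lower values in BV tissue, by -1.04 ± 0.49 (adjusted p = 0.569) and -0.49 ± 0.43 (adjusted p = 0.654). The factors NKX2-1 and LHX6, which specify interneurons born in the medial ganglionic eminence, were higher in all 6 striatum-rich arrays, at 44.3 to 117 against 14.1 to 31.1 and at 78.9 to 186 against 16.9 to 49.4. NKX2-1 had a BV minus mock difference of -0.72 ± 0.25 (adjusted p = 0.564).

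A few genes ran the opposite way, as PVALB tended to. All 6 striatum-rich arrays lay below all others for 1.30% of the tested probe sets. The nuclear receptor NR2F2 (COUP-TFII) had 128 to 343 in the striatum-rich and 508 to 916 in the other arrays, with a BV minus mock difference of 0.72 ± 0.23 (adjusted p = 0.564). PROX1, a factor of interneurons born in the caudal ganglionic eminence, had 34.6 to 125 against 138 to 309, and HAPLN4 63.5 to 235 against 237 to 841. TAC3, NKX2-1 and LHX6 had levels below the filter in some of the other arrays and passed it as a mean over all 12, so their place among the tested genes owes to the arrays where they are high, and no count over the lists is given. PROX1 and LHX6 were chosen after their values were seen.

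**Figure D5:**
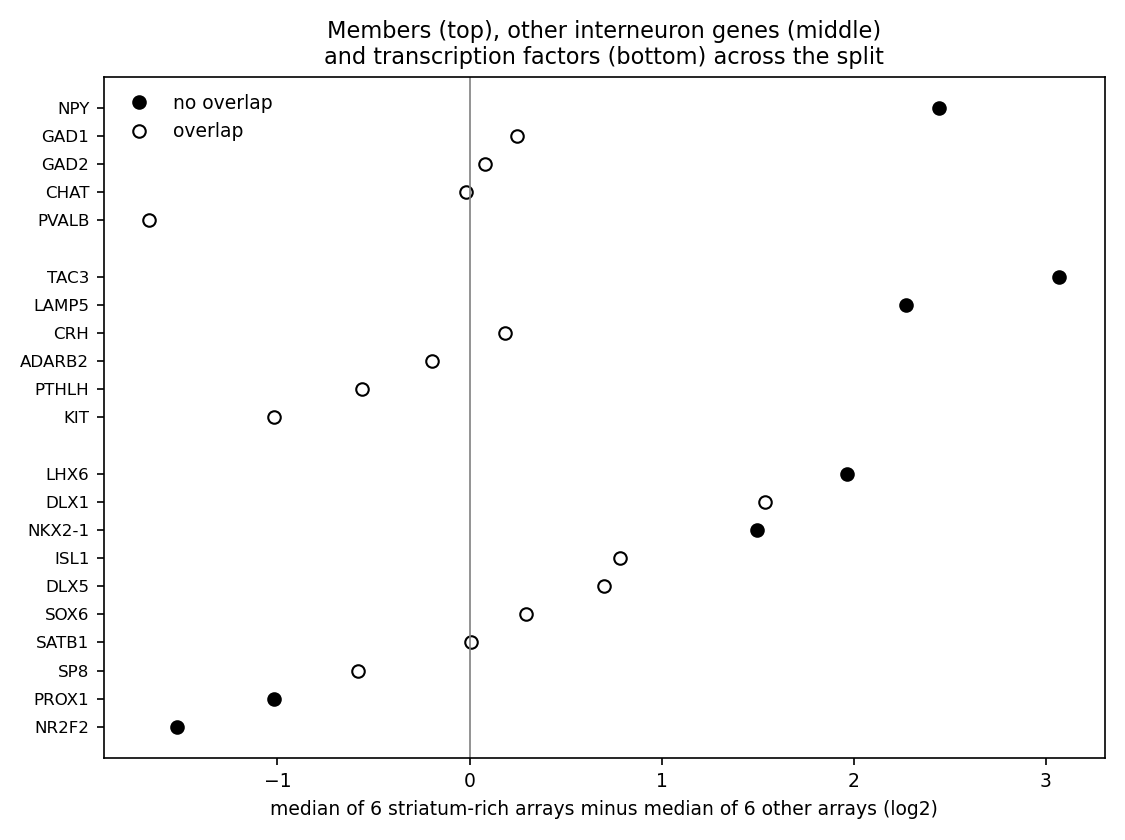
Median log2 value of the 6 striatum-rich arrays minus that of the 6 other arrays for 5 tested members (top), 6 other interneuron genes (middle) and 10 interneuron transcription factors (bottom); filled points mark genes whose 2 sets of arrays do not overlap. NPY lies at 2.44, TAC3 at 3.07 and LAMP5 at 2.27, while PVALB lies at -1.67 and NR2F2 at -1.52.

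Of the cholinergic genes, 2 transporters were too dim to be tested. SLC18A3, the vesicular acetylcholine transporter, whose gene lies within the CHAT locus, and SLC5A7, the choline transporter, fell below the filter. Both were chosen after their values were seen. SLC18A3 had a normalized intensity of 27.6 to 61.6 in the striatum-rich and 7.09 to 18.0 in the other arrays, with no overlap. Of the probe sets bright enough to be tested, 2.49% had all 6 striatum-rich arrays above all others. The BV array was the lower for SLC18A3 in 6 of 6 pairs, as for 4.38% of the tested probe sets. SLC5A7 had 24.6 to 40.7 against 4.77 to 28.4 and was higher in the BV array in 2 of 6 pairs. CHAT itself did not show this difference between pieces, at 29.4 to 61.9 against 8.11 to 63.9.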

How the data were processed

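The authors deposited 1 linear intensity per probe set and array, with GCOS 1.4.0.036 named in the submitters' processing notes. How probes were summarised and scaled is not given in the sources used here. The deposited values do show that piece 1 and piece 2 arrays were scaled differently. Their mean after trimming 2% at each end was 100 on every piece 2 array and 141.5 to 189.5 on the piece 1 arrays. Per the labels' protocols, 5 µg of RNA was labelled with kits of 2 makers.

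As array medians differed, the 12 arrays were quantile normalized and taken as log2(intensity + 3.49), the pseudocount being the 10th percentile of deposited intensities. Control probe sets (99) were left out, and the 31660 of 52766 with a mean log2 value of at least 4.95 (40th percentile) were tested. The treatment fit used limma 3.58.1 under R 4.3.3 on hemisphere means with animal as a block, eBayes with a trend and 2 residual degrees of freedom, with two-sided tests. Each animal carries both treatments per the labels' protocols, hence the block. The pairing was checked by correlating the deviations of the left and right hemispheres over probe sets (r = 0.622, 0.156 and 0.361 in animals 1, 2 and 3). The fit was tested on simulated data.

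Symbols come from the annotation of a rhesus array used with cynomolgus RNA: 24969 probe sets had 1 symbol, 361 several and 27535 none, and 12583 of the 14132 symbols, the 6 measured members included, occur in RefSeq's Macaca fascicularis table. A gene is represented by its brightest probe set. Of each pathway list the passing members, or otherwise the 2 of largest difference, are named, and of each member the 3 genes of highest r. The members, the split of the arrays and the lists were chosen with earlier results of these data known. Alternatives covered normalization, pseudocount, filter, probe set, block, variance trend, piece, a striatal covariate, and arrays or animals left out. The number of animals limits the precision.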

Additional observations from a re-analysis of the deposited data

Results flagged for a closer look

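In the 6 BV arrays, BV 2 stood far below the others for CHAT. Its gap to the nearest array was 0.863 of the whole range of the group, above Dixon's 95% critical value for 6 values. Its normalized intensity was 8.11, against 39.0 to 48.8 in the other 5. Its deposited CHAT intensity of 4.548 lay near the pseudocount of 3.49. BV 2 also had the lowest striatal marker mean of the 12 arrays (6.26) and the highest PVALB level (3380.1), and its actin 3'/5' ratio was 1.27. The part of these in the low CHAT value was not tested. Chance flags about 1 in 20 groups, and 12 groups (6 genes in 2 treatments) were looked at.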

How the results depend on the processing

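The median difference of the 5 tested members lay between -0.18 and 0.10 under 32 alternatives, and no member passed under 31 of them. The exception was the fit without animal 2, where 2 of 5 passed (NPY and PVALB), beside 1845 of all 31660 tested probe sets. NPY and CHAT kept their sign in all 32, and CHAT, left untested by a filter at the 60th percentile, passed in none of the others. With pairs 1, 3, 4 and 6 alone, an alternative chosen after seeing the data, NPY shrank to -0.13 ± 0.33 (SE) and PVALB reversed (-0.16). That alternative leaves out the 2 pairs that straddle the split, where the differences of both genes were largest, and so is no separate evidence. GAD1, at -0.03, changed sign with median centring (0.10), piece 1 alone (0.11), the striatal covariate (0.054), without animal 1 (0.068) or 2 (0.011), and ran from -0.15 to 0.10 without single arrays. GAD2, at 0.05, was -0.18 without animal 3 and ran from -0.028 to 0.12 without single arrays. The number of member genes without overlap across the split was 1, and 2 without normalization. Of the tested probe sets, 2.49% lay above and 1.30% below in all 6 striatum-rich arrays after normalization. The share without normalization, which keeps the difference in scale between piece 1 and piece 2 arrays, was not computed. The count of called probe sets, 9, was 1 without normalization or without the variance trend, and 5 without a filter. It was 4 on hemisphere means without the animal block, and 55 with a replicate block over the 12 arrays. With a term for piece it was 38, and with hemisphere as a random block 85. Piece 1 alone gave 14 and piece 2 alone 0 (1747 at an unadjusted p under 0.05). The striatal covariate gave 14, and pairs 1, 3, 4 and 6 alone 0 (1529 at an unadjusted p under 0.05). The count was 1, 1845 and 82 without animals 1, 2 and 3, and 0 to 43 without single arrays. It was lowest when mock replicate 5 was left out (1703 had an unadjusted p under 0.05), and 1 without BV replicate 6 or mock replicate 3. It was 15, 28 and 43 without BV replicate 3, mock replicate 4 and mock replicate 6. Why the counts move was not tested. The replicate block over the 12 arrays changed the call of no member. Fits without 1 array let the other piece stand for its hemisphere. Depth is not defined for arrays: dim signal limits VIP, which fell below the intensity filter, and CHAT, with a mean log2 value of 5.425 against 4.95.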

Other observations

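CNR1, the cannabinoid receptor of medium spiny neurons and of some interneurons, and LHX8, a factor of cholinergic and other ventral forebrain neurons, were below the filter and separated the pieces without overlap. Their normalized intensities in the striatum-rich and the other arrays were 13.9 to 59.3 against 1.56 to 3.82, and 36.2 to 113 against 1.10 to 11.3. Both were chosen after their values were seen. Of the probe sets bright enough to be tested, 2.49% had all 6 striatum-rich arrays above all others. The other interneuron genes NOS1, TH, NDNF and HTR3A, also below the filter, overlapped. The CNR1 levels in the other arrays lay near the pseudocount of 3.49.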
